A study of Mus musculus with 5 samples.

Results

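The second BD Rhapsody library of the series, called BD 2, was compared with the first, called BD 1. BD 2 is the deposited matrix of 4186 cells and BD 1 the matrix of 3772 cells, so that the comparison covers 7958 of the 15958 cells in the matrices of the 5 samples, and 2 of the 5 samples. The labels of BD 2 conflict. Its sample title calls it fresh, while the names of its deposited files say 24h, and nothing else in the labels settles which is right. BD 1 is called fresh by both its title and its files. The difference between BD 2 and BD 1 is therefore described below without assuming that BD 2 was stored.

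Both libraries came from mammary tumours of PyMT mice, in which the polyoma virus middle T antigen drives tumours of the mammary epithelium. Viable cells were enriched from the digested tumours before loading, per the labels' protocols. Material of low quality was made by holding digests overnight at 4 °C until flow cytometry showed that viability was lower by at least 20%. The sources used here give no strain, age or number of animals, and all libraries carry the same tumour model. The other libraries are 2 fresh samples on the 10x Chromium 3' v2 system and 1 stored sample on that system, whose title and files both say 24 h. They are set beside the BD Rhapsody values where the same genes are described.

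BD Rhapsody captures single cells in microwells, and captured poly(A) transcripts are tagged with a barcode for the cell and a molecular identifier (UMI), by which copies of 1 molecule are counted once. The mitochondrial genome encodes subunits of the respiratory chain and of ATP synthase, and its mRNAs lie inside the organelle. A high mitochondrial share of the UMIs of a cell is widely used as a sign of damage, since cytoplasmic RNA can leak from a broken cell while RNA inside organelles stays. A PyMT tumour holds luminal tumour cells, fibroblasts that make the collagen matrix, endothelial cells that line the vessels, and macrophages and lymphocytes.

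Only 1 deposited sample stood on each side, so no replicate test was possible and no p-value is given. The spread inside BD 1 was measured instead with 2 deposited subset matrices, whose file names say rep1 and rep2 and whose counts are identical to those of the same cells in BD 1. By the marker gates described below the first holds 954 epithelial-gated and 405 other cells, and the second 1112 and 591. A further 710 cells of BD 1 are in neither subset and are given as a separate part. The subsets belong to 1 deposited sample, so that they are parts of a library and not replicates by any sample label, and nothing says that they came from separate cultures or animals. BD 1 and BD 2 shared 24 barcodes, 0.573% of the BD 2 cells.

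BD 2 cells held fewer UMIs and a larger mitochondrial share than BD 1 cells. BD 1 held 59957945 UMIs and BD 2 held 49966022. The median cell had 12474 UMIs in BD 1 (12259 in the rep1-named subset, 13261 in the rep2-named subset and 10715.5 in the remaining cells) and 8926 in BD 2. A median of 3215.5 genes was detected per BD 1 cell and of 2534 per BD 2 cell. With every cell thinned to 2000 UMIs, which left out 7 shallower cells of BD 2, the medians were 989 genes in BD 1 (986, 993 and 988 in its parts) and 933 in BD 2. BD 2 was thus below all 3 parts of BD 1 in both depth and complexity, and the gap in genes at equal depth was narrower in epithelial cells (989 against 951) than in the other cells (990 against 880).

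The median mitochondrial share of a cell was 15.2% in BD 1 (15.7%, 14.3% and 16.0% in its parts) and 19.8% in BD 2. Cells above 20% mitochondrial UMIs made up 31.6% of BD 1 (95% exact binomial interval 30.1 to 33.1) and 49.3% of BD 2 (47.7 to 50.8). Among the parts of BD 1 this share ran from 27% to 37.2%, so BD 2 lay above each of them. Over all cells outside the epithelial gate the median went from 12% (10.2% to 17.6% in the parts) to 23%. In epithelial cells it went from 15.6% (15.4% to 15.9%) to 19.3%. The cells outside mix types, and those over no gate, at medians of 37.8% and 39.6%, went from 15.3% to 23.3% of cells. Within the larger gates the median went from 6.03% to 7.59% (fibroblast), 9.11% to 10.5% (macrophage) and 9.60% to 11.4% (T and NK). It went from 13.4% to 17.1% in endothelial- and 12.9% to 23.3% in mural-gated cells, with at most 40 cells each. The part of the cell mix was not tested. On the 10x system the median over all cells was 7.17% in the stored sample against 6.14% and 6.99% in the fresh pair. There the share of cells above 20% was 14.3% against 3.71% and 6.39%. These intervals, and all others below, cover counting error only.

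The difference was not shared evenly by the 13 mitochondrial mRNAs. The shortest 2 of them led it, mt-Atp8 at 2.05-fold and mt-Nd4l at a log2 difference of 0.62 in epithelial-gated cells. mt-Atp8 encodes a small subunit of ATP synthase, and mt-Nd4l a small membrane subunit of complex I. Each shares its last bases with the start of the next gene, mt-Atp6 and mt-Nd4, in one bicistronic transcript. mt-Atp8 (GRCm38 chrM:7766-7969, plus strand, 204 bases) overlaps mt-Atp6 by 43 bases, and mt-Nd4l (chrM:9877-10173, plus strand, 297 bases) overlaps mt-Nd4 by 7. Both are shown 5′ to 3′ from the GENCODE vM21 transcripts, with the overlap in capitals. Only a read that lies within the overlap cannot be assigned to 1 gene by its sequence alone, and the overlap is a minor part of each gene.
mt-Atp8: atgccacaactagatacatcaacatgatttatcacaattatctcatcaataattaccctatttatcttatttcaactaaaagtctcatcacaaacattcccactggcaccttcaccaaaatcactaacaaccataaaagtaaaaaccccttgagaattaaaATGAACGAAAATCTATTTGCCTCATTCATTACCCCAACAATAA
mt-Nd4l: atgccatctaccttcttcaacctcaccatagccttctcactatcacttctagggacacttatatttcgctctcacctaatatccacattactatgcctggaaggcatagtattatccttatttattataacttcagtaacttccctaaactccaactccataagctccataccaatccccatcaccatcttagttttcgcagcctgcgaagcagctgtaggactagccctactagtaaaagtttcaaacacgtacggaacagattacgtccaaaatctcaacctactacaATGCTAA

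In epithelial-gated cells mt-Atp8 stood at 8.01 UMIs per 10000 in BD 1 (8.59, 7.65 and 7.67 in the rep1-named, rep2-named and remaining cells) and at 16.4 in BD 2. The ratio was 2.05 (95% interval 2.02 to 2.07), and the parts of BD 1 did not reach the BD 2 value. mt-Nd4l stood at 33.7 per 10000 (35.8, 31.5 and 35.4) against 52.0, again with BD 2 above every part. The log2 differences were 1.03 and 0.62, against -0.17 and -0.19 between the subsets. mt-Nd4l did not pass the call rule given below in these cells, with 0.54 against the rep1-named subset. Over whole libraries they were 1.14 and 0.70.

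The other 11 mRNAs differed less, with no clear order by length. The longest, mt-Nd5, a subunit of complex I, differed by 0.35, and mt-Nd2, mt-Cytb and mt-Nd4 by 0.40, 0.31 and 0.29. The shorter mt-Nd3 and mt-Co2 differed by 0.19 and 0.13. mt-Co1, a catalytic subunit of cytochrome oxidase and the most abundant of the 13, went from 362 to 422 per 10000, a log2 difference of 0.22. mt-Co3 differed by 0.03, and mt-Nd6, the only one of them transcribed from the minus strand, by -0.21 at 0.88 against 0.75 per 10000. So 12 of the 13 were higher in BD 2 in epithelial-gated cells, by amounts from 0.03 to 1.03. Across the 13 genes the difference correlated with the share of adenine in the mRNA at r = 0.75 and with its length at r = -0.21. mt-Atp8 had both the highest adenine share (40.7%) and the highest difference, and mt-Nd6 the lowest of both (22.2% adenine). Between these ends mt-Nd4l, at 29.97% adenine, differed by 0.62 and mt-Co3, at 29.85%, by 0.03. The adenine correlation without mt-Atp8 and mt-Nd6 was not tested. The 13 points share 1 pair of libraries, and all but mt-Nd6 share a polycistronic precursor, so the correlations are descriptions.

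Both genes were also higher in the stored 10x sample. Stored against fresh 10x, the log2 differences in epithelial-gated cells were 1.84 for mt-Atp8 and 0.99 for mt-Nd4l. There mt-Nd3 lay between them at 1.55, while BD 2 against BD 1 gave it 0.19. The fresh 10x pair itself differed by -0.84 for mt-Atp8 and -0.76 for mt-Nd4l. Levels on 10x were far lower, with 1.19 and 0.66 UMIs of mt-Atp8 per 10000 in the fresh pair and 3.22 in the stored sample. Among cells with at most 20% mitochondrial UMIs in both BD Rhapsody libraries, mt-Atp8 still differed by 0.90 in epithelial-gated cells.

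**Figure D1:**
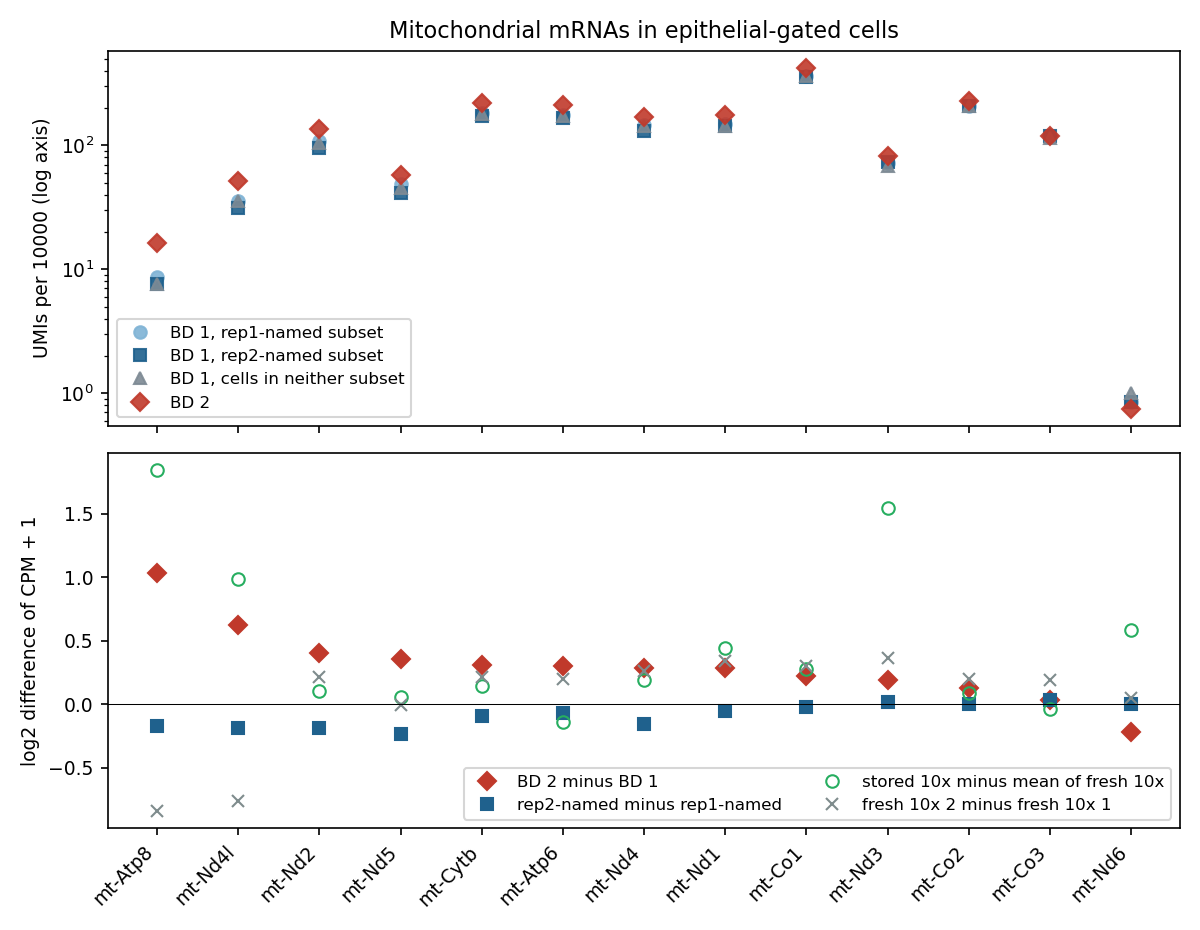
Upper panel, UMIs per 10000 (log axis) of the 13 mitochondrial mRNAs in epithelial-gated cells, for the 3 parts of BD 1 (blue and grey symbols) and BD 2 (red diamonds). Lower panel, log2 differences of CPM + 1 for BD 2 minus BD 1, for the 2 named subsets, for stored minus fresh 10x and for the fresh 10x pair. The largest BD 2 differences are mt-Atp8 at 1.03 and mt-Nd4l at 0.62, and the smallest is mt-Nd6 at -0.21.

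Cells were sorted into marker gates in the same way in every library. A cell was called epithelial-gated where Krt8, Krt18 and Epcam together reached 15 UMIs per 10000, and the cells below that were tested for fibroblast, macrophage, endothelial, mural, T and NK, and neutrophil genes. The epithelial-gated share was 67.0% of BD 1 (70.2%, 65.3% and 65.1% in its parts) and 62.9% of BD 2. This difference depended on the gate. It was -4.10 percentage points at 15 UMIs per 10000, -0.138 points at 10 and -7.67 points at 30. Many cells lay near the gate, with 40.5% of BD 1 and 48.1% of BD 2 between 10 and 30, so the share is a range and not a count of a cell type.

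Outside the epithelial gate BD 2 had fewer fibroblast- and endothelial-gated cells and more cells without any gate. Fibroblast-gated cells, with at least 20 UMIs per 10000 of Col1a1, Col1a2 and Col3a1, were 332 cells or 8.80% of BD 1 (7.8%, 10.8% and 5.92% in its parts) and 234 cells or 5.59% of BD 2 (interval 4.91 to 6.33). BD 2 was below both named subsets and next to the remaining cells of BD 1, whose interval of 4.30 to 7.91 held its value. Endothelial-gated cells were 40 cells or 1.06% of BD 1 (interval 0.759 to 1.44) and 14 cells or 0.334% of BD 2 (0.183 to 0.561). The endothelial intervals of BD 1 and BD 2 did not overlap, but those of the rep1-named subset (0.405 to 1.44) and of the remaining cells (0.311 to 1.83) reached into that of BD 2.

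Cells over no gate were 15.3% of BD 1 (14.5%, 13.2% and 22.1%) and 23.3% of BD 2. The remaining cells of BD 1 reached BD 2 here too, with an interval of 19.1 to 25.3. The median mitochondrial share of cells over no gate was 37.8% in BD 1 (30.5% to 55.8% in its parts) and 39.6% in BD 2, and their median depth 6018 and 5258 UMIs. Macrophage-gated cells were 4.56% against 3.94%, mural-gated cells 0.504% against 0.621% and neutrophil-gated cells 0.292% against 0.239%, all with BD 2 between the lowest and highest part or inside their intervals. T and NK cells, by Cd3, Trac, Ncr1 and Gzma, were 2.41% (1.55%, 3.29% and 1.97%) against 3.08%, which lay between the parts. The enrichment of viable cells before loading can set such shares, and its part in them was not tested.

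**Figure D2:**
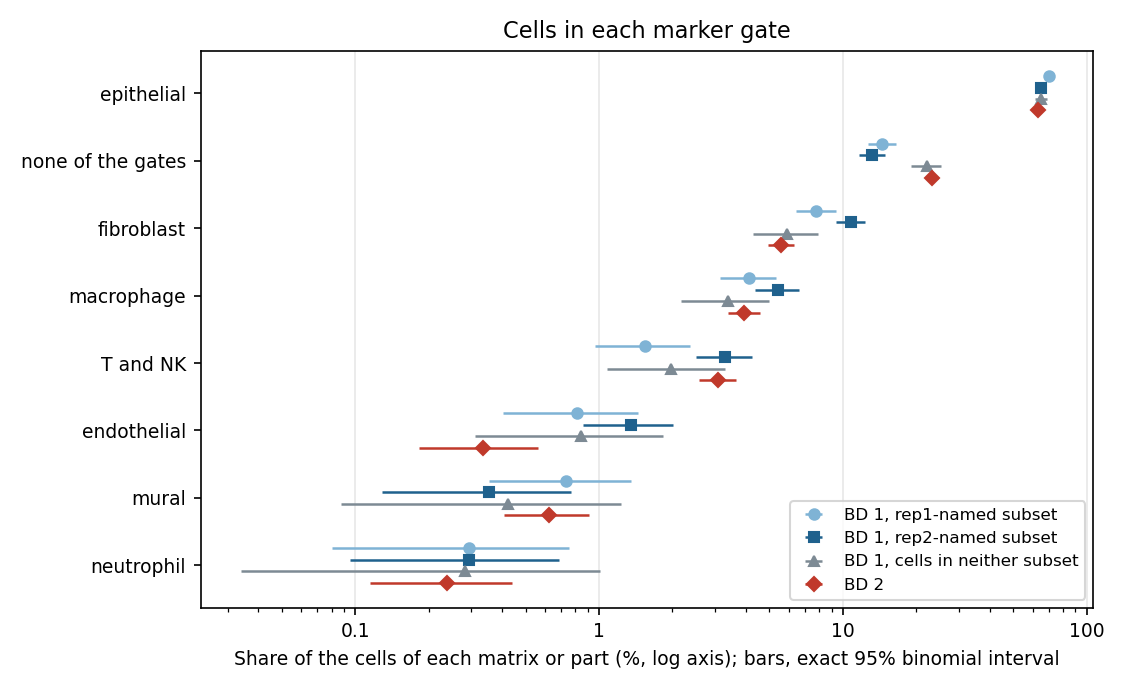
Share of cells in each marker gate (percent, log axis) for the rep1-named subset, the rep2-named subset and the remaining cells of BD 1, and for BD 2, with exact 95% binomial intervals. BD 2 lies lowest for endothelial-gated cells at 0.334% and highest for cells over no gate at 23.3%, where the remaining cells of BD 1 lie at 22.1%.

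UMIs were then summed per library and written as CPM, which scales the UMIs of every library or set of cells to the same total. A gene counted as measured where the mean CPM of BD 1 and BD 2 was at least 10. It was called higher or lower in BD 2 where its CPM + 1 was at least 1.5-fold apart from all of BD 1 and, on the same side, from each named subset. In epithelial-gated cells BD 2 differed from the subsets about as much as they differed from each other. The SD of the log2 difference over 8238 genes was 0.186 for BD 2 minus BD 1. It was 0.184 and 0.254 against the rep1- and rep2-named subsets, and 0.244 between those subsets. BD 2 held 2634 such cells and the subsets 954 and 1112. Counting error therefore enters these SDs, and the shares past 1.5-fold given below, unequally. On 10x the SD was 0.224 for the fresh pair and 0.317 and 0.337 for the stored sample against each fresh sample.

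Outside the epithelial gate the order was different. There the SD over 9045 genes was 0.443 and 0.445 for BD 2 against the named subsets and 0.349 between them. The remaining cells of BD 1 stood as far from those subsets (0.514 and 0.499, from 248 cells) and closer to BD 2 (0.367). Thus 487 genes were past 1.5-fold between BD 2 and the remaining cells, against 1287 and 1493 between the remaining cells and the rep1- and rep2-named subsets. Both the remaining cells of BD 1 and BD 2 had more cells over no gate and fewer fibroblast-gated cells than the named subsets.

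**Figure D3:**
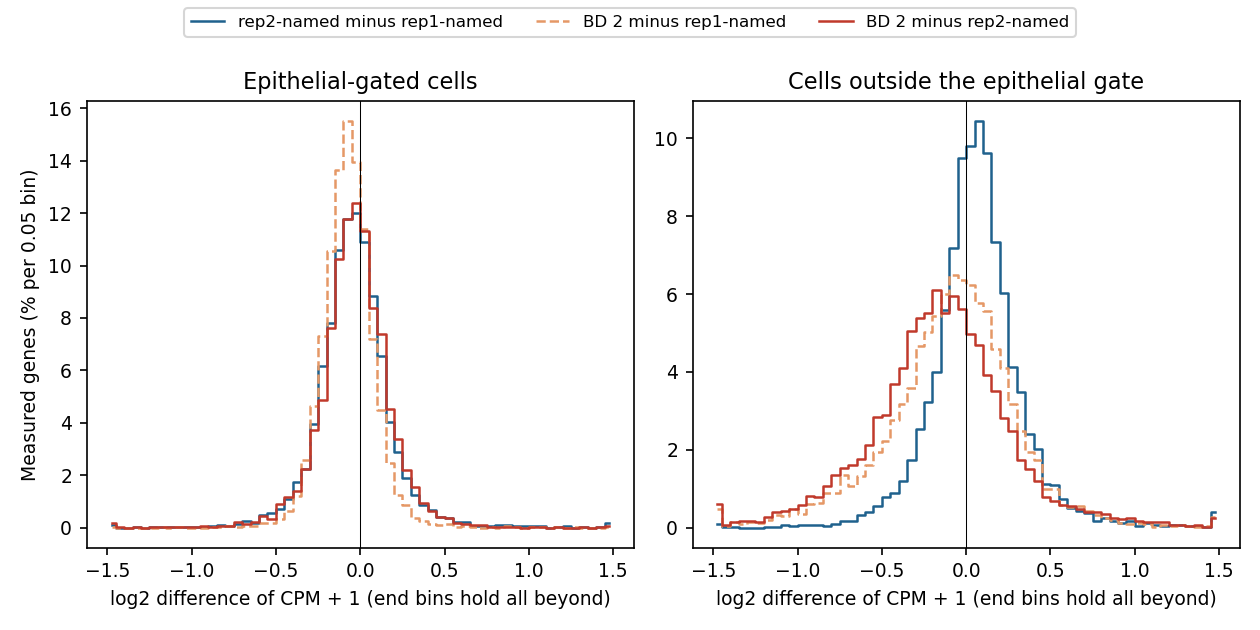
Distribution of the log2 difference of CPM + 1 over measured genes (percent of genes per 0.05 bin, with all values beyond the axis in the end bins) in epithelial-gated cells and in cells outside the gate. In epithelial-gated cells the 3 curves overlap, with SDs of 0.244, 0.184 and 0.254 in the order of the legend. Outside the gate the curves of BD 2 are wider (0.443 and 0.445) than that between the subsets (0.349).

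Over whole libraries 10 genes were called higher in BD 2 (0.114% of 8755 measured genes) and 126 lower (1.44%), together 1.55%. The median gene was lower by 0.09 on the log2 scale in BD 2, which held more mitochondrial UMIs. For comparison, 3.1% of genes were past 1.5-fold between the named subsets, 2.79% between the fresh 10x samples and 5.94% between stored and fresh 10x. These are shares of single comparisons, whereas a call needed the fold against BD 1 and both subsets at once. In single comparisons BD 2 was past 1.5-fold for 2.2% of genes against the rep1-named subset and 6.29% against the rep2-named one. The 126 lower genes were mostly stromal. In BD 1, 92 of them had their highest level in fibroblast-gated cells and 19 in endothelial-gated cells, and only 1 in epithelial-gated cells. Of the 126, 125 were also called lower outside the epithelial gate and 3 in epithelial-gated cells.

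Vessel genes had the largest folds among those with at most 50% of their UMIs in 10 cells, although Aqp1 lay at the edge of that limit with 49.9%, and Plvap and Pecam1 had 40.4% and 40.1%. Aqp1, a water channel of capillary endothelium, stood at 27.8 CPM in BD 1 (20.7, 31.4 and 33.2 in its parts) and at 6.22 in BD 2, a log2 difference of -2.0. Plvap, which forms the diaphragms of endothelial pores, was at 16.5 CPM (14.3, 17.0 and 19.7) against 4.48. Pecam1, an adhesion molecule of endothelial junctions, was at 16.3 CPM (15.5, 17.1 and 15.8) against 5.04. All 3 were lower in BD 2 than in every part of BD 1, the remaining cells included. Outside the epithelial gate all 7 of the endothelial markers measured (Pecam1, Cdh5, Kdr, Emcn, Tie1, Plvap and Flt1) were called lower, with a median of -1.95, against 7.04% of 9045 genes there. Pecam1, Cdh5, Kdr and Emcn chose the endothelial-gated cells, and the summed level of the 7 markers was 0.68 per 10000 in BD 1 (0.62 to 0.72) and 0.20 in BD 2. On 10x the stored sample was also lower, at 0.75 against 3.29 and 2.12 per 10000 in the fresh samples.

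The other leading lower genes belong to fibroblasts. Tnfaip6, a hyaluronan-binding protein, was at 81.9 CPM (57.4, 119 and 30.4) against 29.7. Htra3, a secreted serine protease, was at 113 CPM (96.5, 141 and 67.2) against 45.9. Sfrp4, a secreted modulator of Wnt signalling, was at 53.8 CPM (47.8, 59.2 and 51.6) against 22.6. BD 2 was below the 3 parts for each of these, but the remaining cells lay near it for Tnfaip6. Sema3c (a secreted guidance factor), Gfpt2 (an enzyme of the hexosamine pathway), Pi16 (a marker of adventitial fibroblasts) and Cmah (which hydroxylates sialic acid) differed by -1.21, -1.15, -1.14 and -1.13. As whole libraries were summed, fewer fibroblasts and less RNA per fibroblast cannot be told apart in these values alone. Fibroblast-gated cells had a median of 18667 UMIs in BD 1 (19571, 18671.5 and 14644 in its parts) and 14629 in BD 2. Over all cells the medians were 12474 and 8926 UMIs. The parts of cell number and depth in the gene differences were not tested.

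The collagen and matrix list had 6 of 22 genes called lower over whole libraries, namely Fbn1, Mgp, Fn1, Col4a2, Tnc and Col15a1, at a median of -0.66, where 1.44% of all genes were called lower. Against the remaining cells of BD 1 the direction turned for Fbn1 (135 against 179 CPM), Fn1 (218 against 290 CPM) and Tnc (12.7 against 29.5 CPM). The list summed to 127 UMIs per 10000 in BD 1, 81.6 in its remaining cells and 82.1 in BD 2. All 22 were below 0. The complement list had 1 of 12 called lower, C4b at -0.60, and a median of -0.61. From the other lists Hmox1 (haem oxygenase, -0.77), Gadd45g (a stress-induced cell cycle inhibitor, -0.69), Rgs5 (-1.04), Fabp4 (-1.74), Gzma (-1.91) and Scgb1b27 (-1.72) were called lower. The last 4 had over 50% of their UMIs in 10 or fewer cells of BD 1.

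Within fibroblast-gated cells the difference of these genes was smaller, a comparison that was added after the whole-library result was seen. The 92 lower genes with their highest level in these cells had a median log2 difference of -0.81 over whole libraries and of -0.34 within fibroblast-gated cells. There 7 of them were called lower (17 of all 3051 genes, 0.557%) and all but 1 lay below 0. The 92 were chosen as lower from sums that include these same cells, so their direction here is partly set by that choice. From outside these 92, Col1a1, which helped to choose the cells, was at 19139 CPM in BD 1 and 19542 in BD 2, and Dcn, a small proteoglycan of the matrix, at 6471 and 6577. Fbn1, one of the 92 and the fibrillin of elastic microfibrils, was at 2792 CPM (3015, 2828 and 1869 in the parts) and 2354.5. The collagen and matrix list had a median of -0.02 with 0 of 22 genes called lower and 1, Thbs1, called higher. Thbs1 had 63.3% of its BD 2 UMIs in 10 cells. Of the list, Col1a1, Col1a2 and Col3a1 chose the cells, so the gate partly sets their level here.

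In fibroblast-gated cells 10 of 3051 genes were called higher (0.328%) and 17 lower (0.557%), together 0.885%, at a floor of 50 CPM. In single comparisons 1.97% were past 1.5-fold between the named subsets. For BD 2 it was 2.46% against the rep1-named subset and 2.65% against the rep2-named one. Of those named over whole libraries, Htra3 was at 916 CPM (847, 980 and 802) against 529 and Sema3c at 376 CPM (405, 365 and 341) against 215, with BD 2 below each part. Aldh1a3, a retinoic acid synthesising enzyme, was at 176 CPM (177, 190 and 99.2) against 95. Lama4, a laminin chain of basement membranes, was at 333 CPM (347, 337 and 266) against 220, and Fgf2, a fibroblast growth factor, was at 96.4 CPM (112, 94.9 and 54.0) against 59.0. On 10x storage went the other way for Htra3 (1.52) and Sema3c (1.68). Among the higher genes were mt-Atp8 (1.48), mt-Nd4l (0.88) and mt-Nd5 (0.68), with Pfdn1 (0.73), Mrps33, a protein of the mitochondrial ribosome (0.78), and Ctla2a, a cysteine protease inhibitor (0.85).

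Few genes were called higher over whole libraries. Besides mt-Atp8 and mt-Nd4l these were Wif1, Xcl1, Pfdn1 and Ndufaf2, and 4 genes (Hba-a1, Hbb-bt, Mup5 and Prh1) with over 50% of their UMIs in 10 or fewer cells. Pfdn1, a subunit of the prefoldin chaperone, was at 100.3 CPM in BD 1 (102.3, 97.3 and 104.4 in its parts) and at 158 in BD 2, a ratio of 1.57 (interval 1.52 to 1.63). Ndufaf2, an assembly factor of complex I, was at 24.2 CPM (23.5, 24.0 and 26.0) and 38.2, a ratio of 1.58 (1.48 to 1.70). For both genes the parts of BD 1 lay close together and BD 2 lay above them. The 10x samples, on their own platform, had 151, 166 and 153 CPM of Pfdn1 and 37.7, 38.6 and 42.2 of Ndufaf2, with the stored sample last.

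Xcl1, a chemokine of lymphocytes, was at 8.37 CPM (5.42, 8.64 and 14.1) against 16.5. In the T and NK gate 45 of 91 cells (49.5%, interval 38.8 to 60.1) had an Xcl1 UMI in BD 1 and 69 of 129 (53.5%, interval 44.5 to 62.3) in BD 2, and fibroblast-gated cells had 0 of 332 and 1 of 234. The median depth of the T and NK cells was 5125 and 4505 UMIs. The shares therefore overlapped, while the number of such cells was larger in BD 2. Wif1, a secreted Wnt inhibitor, was at 10.1 CPM in BD 1 and 20.7 in BD 2, but its parts ran from 2.48 in the rep2-named subset through 9.15 in the rep1-named subset to 33.6 in the remaining cells. Against the remaining cells the sign of the Wif1 difference was reversed, at -0.68.

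In epithelial-gated cells 6 of 8238 genes were called higher (0.0728%) and 13 lower (0.158%), together 0.231%. The share past 1.5-fold was 2.21% between the named subsets, 2.28% between the fresh 10x samples and 4.31% between stored and fresh 10x. As single comparisons like these, BD 2 was past 1.5-fold for 0.631% against the rep1-named subset and 1.86% against the rep2-named one. The 182 genes apart between the subsets placed BD 2 between them in 144 cases, below both in 26 and above both in 12. As these genes were chosen for a wide gap between the subsets, a place inside it is favoured beforehand. The count therefore does not measure how close BD 2 lies to BD 1. The median gene differed by -0.07.

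The higher genes were mt-Atp8, Pfdn1 (113 CPM in BD 1 with parts at 114, 111 and 116, against 175), Ndufaf2 (25.1 CPM with parts at 24.4, 25.1 and 26.9, against 39.1), Wif1, Mup5 and Prh1. Prh1 and Mup5 encode a secreted salivary-type protein and a major urinary protein. A few cells held them: of the 3590 Prh1 UMIs in BD 2, 3549 lay in 10 cells, 7 of them epithelial-gated, and the same 10 cells held 96.5% of the Mup5 UMIs. A single cell held 2851 of the 3145 Mup5 UMIs, and the highest Prh1 cell held 1808. BD 1 had 20 Prh1 UMIs in 2 cells.

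Among the lower genes, Igfbp7, a secreted binding protein for growth factors, was at 57.7 CPM (54.5, 68.6 and 35.1) against 35.7, and Col4a1, a basement membrane collagen, at 14.9 CPM (17.8, 15.5 and 6.45) against 8.01. Npy, a neuropeptide, was at 55.3 CPM (53.5, 67.9 and 24.5) against 35.3. For these 3 genes the remaining cells of BD 1 were at or below BD 2, so the differences hold only against the named subsets.

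Krt14, the keratin of basal mammary cells, was at 34.6 CPM (36.2, 36.4 and 25.9) against 21.9. Tmem238 was at 65.5 CPM (67.4, 65.3 and 61.7) against 43.1, and Wdr38 at 19.7 CPM (20.2, 20.9 and 15.1) against 12.5. For these 3 genes BD 2 lay below every part of BD 1. A further 6 lower genes (Jchain, Igha, Igkc, Scgb1b27, Klk10 and Sparc) had over 50% of their UMIs in 10 cells of BD 1, from 53.4% for Sparc to 93.5% for Jchain. The immunoglobulin genes were high in the rep2-named subset alone, with Igha at 214 CPM there against 24.5 and 24.8 in the other parts and 7.73 in BD 2.

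**Figure D4:**
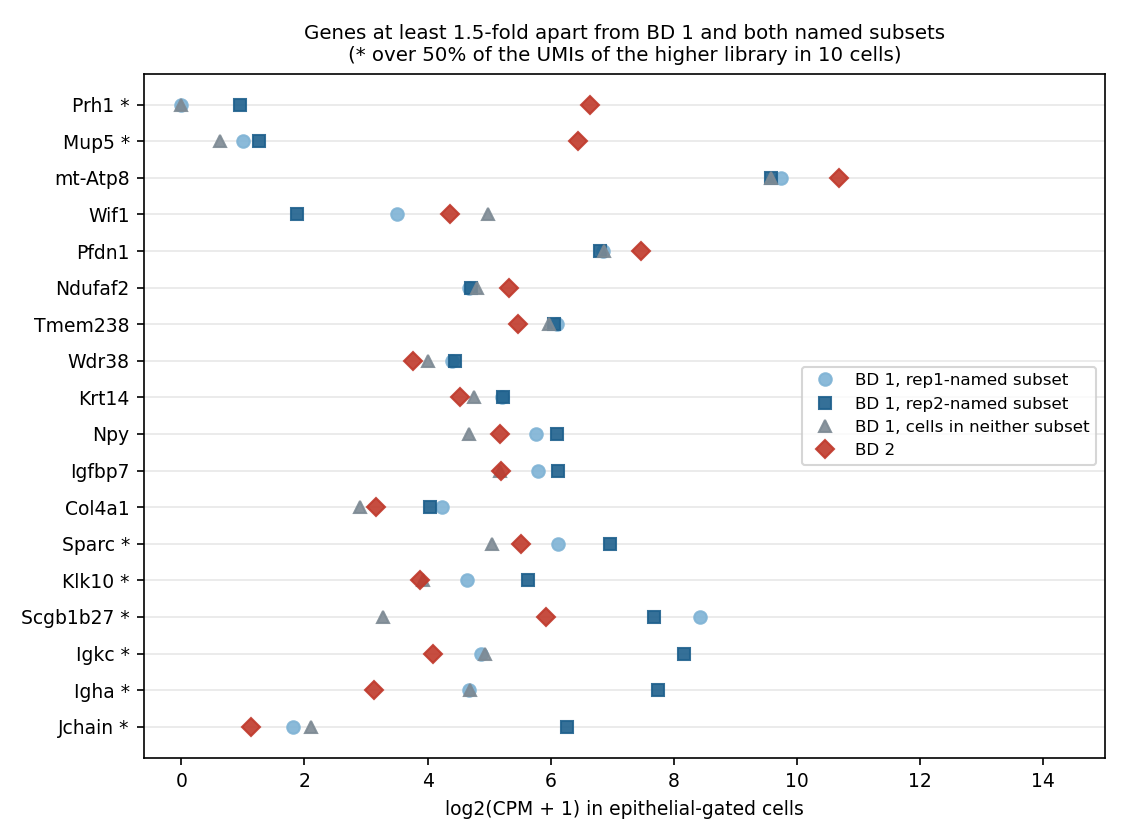
Genes called in epithelial-gated cells, as log2(CPM + 1) in the 3 parts of BD 1 (blue and grey) and in BD 2 (red). An asterisk marks genes with over 50% of the UMIs of the higher library in 10 cells. mt-Atp8, Pfdn1 and Ndufaf2 have the parts of BD 1 close together and BD 2 above them, while for Igfbp7, Col4a1 and Npy the remaining cells of BD 1 lie at or below BD 2.

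The stress lists of epithelial-gated cells gave 0 called genes in either direction. The immediate early genes, which dissociation induces within minutes, had 23 members measured and a median of -0.13. Jund, their most abundant member, was at 3506 CPM (3415, 3620 and 3403) against 3246. Fos, which pairs with Jun proteins as AP-1, was at 3088 CPM (2886, 3159 and 3359) against 2774, and Egr1 at 1451 CPM (1286, 1539 and 1586) against 1398. BD 2 was below every part for Jund and Fos, by log2 differences of -0.11 and -0.15. The 14 heat shock genes had a median of -0.07. Hsp90ab1, a constitutive chaperone, was at 2106 CPM (2219, 1974 and 2210) against 2080, and Hspa1a, an inducible one, at 167 CPM (131, 183 and 202) against 131. For Hspa1a BD 2 was level with the rep1-named subset and below the other parts. On 10x the same 14 genes were lower after storage, at a median of -0.42, and Hspa1a differed by -1.44.

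The unfolded protein list (17 genes) had a median of -0.04, with the transcription factor Xbp1 at 1008 CPM against 897.5. The apoptosis and p53 list (19 genes) was at -0.11, with the survival factor Mcl1 at 384 CPM against 324. The metallothionein and oxidative list (16 genes) was at -0.07, with the ferritin heavy chain Fth1 at 2527 CPM against 2531. Of the cold-inducible RNA-binding proteins, Rbm3 was at 255 CPM (245, 265 and 252) against 241 and Cirbp at 33.0 CPM (31.2, 34.0 and 34.6) against 29.6. Neither passed the fold. The median over all 8238 genes was -0.07, so the medians of these lists lay within 0.06 of it.

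The lists farthest above that median were the mitochondrial mRNAs at 0.29 (1 of 13 called higher) and the nuclear noncoding RNAs at 0.27 (0 of 6 called). Malat1, a long noncoding RNA kept in the nucleus, was at 1387 CPM (1136, 1528 and 1577) against 1757, a log2 difference of 0.34 that did not pass the fold. Kcnq1ot1, another nuclear transcript, differed by 0.51, and Neat1 by -0.12. Both the rep2-named subset and the remaining cells came closer to BD 2 for Malat1 than the rep1-named subset did. The highest member, Gm42418, was at 1743 CPM (1803, 1674 and 1800) against 1602. In cells of at most 20% mitochondrial UMIs the median of the list changed sign, to -0.16, while that of the mitochondrial mRNAs was 0.18. The nuclear noncoding list was at 0.77 in the stored 10x sample. The cytosolic ribosomal proteins (89 genes, median 0.02) and the nuclear-encoded respiratory chain (74 genes, median 0.01) had 0 called members.

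The luminal keratin and junction list had a median of -0.25 over 13 genes, with 0 called. Of these Krt8, Krt18 and Epcam chose the cells, and Epcam, the most abundant, was at 1672 against 1685 CPM. Cldn4, a claudin of tight junctions, was at 243 CPM (255, 251 and 192) against 172, and Krt19 at 312 CPM (361, 308 and 213) against 246. For Cldn4 BD 2 was below every part, and for Krt19 it lay between the parts. The milk list had a median of -0.24 over 15 genes. Its most abundant member Csn3, kappa-casein, was at 17802 CPM (15730, 20170 and 16038) against 17692, and Csn2, beta-casein, at 1234 CPM (837, 1545 and 1292) against 689. The list's median was 0.02 against the rep1-named subset and -0.40 against the rep2-named one, and 0.40 between the subsets.

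The interferon list (median -0.20, 18 genes), the acute phase list (-0.23, 12 genes), MHC I (-0.14, 12 genes) and the S phase list (0.11, 18 genes) likewise differed at least as much between the subsets, at 0.45, 0.40, 0.18 and -0.39. Their most abundant members were Irf1 (250.1 against 219 CPM), the lipocalin Lcn2 (6879 against 5878), H2-D1 (945 against 866.5) and Rrm2 (52.2 against 61.7). The G2/M list was at 0.17 (23 genes) against -0.18 between the subsets, with the chromatin protein Hmgb2 at 174 CPM (203, 149 and 179) against 234. The chemokine and cytokine list was at -0.33 (9 genes, 0 called) and the NF-kB targets at -0.17 (11 genes, 0 called), where stored 10x stood at 0.78 and 0.43. Their most abundant members were the neutrophil attractant Cxcl1 (671 against 645 CPM) and the early response gene Ier3 (1403 against 1208). Collagen and matrix genes had the lowest median of the pathway lists, -0.83 over 12 genes, with 2 called lower, Col4a1 and Sparc. It was -0.09 against the rep1-named subset and -1.43 against the rep2-named one. Col3a1 was at 122 CPM (60.1, 198 and 55.3) against 57.7. The 6 fibroblast markers in these cells summed to 3.22 UMIs per 10000 in BD 1 (1.70, 5.15 and 1.4) and 1.70 in BD 2, so they were high in the rep2-named subset alone, and their part in the collagen difference was not tested. Of the epithelial-gated cells, 2.25% in BD 1 and 3.04% in BD 2 also passed another gate.

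**Figure D5:**
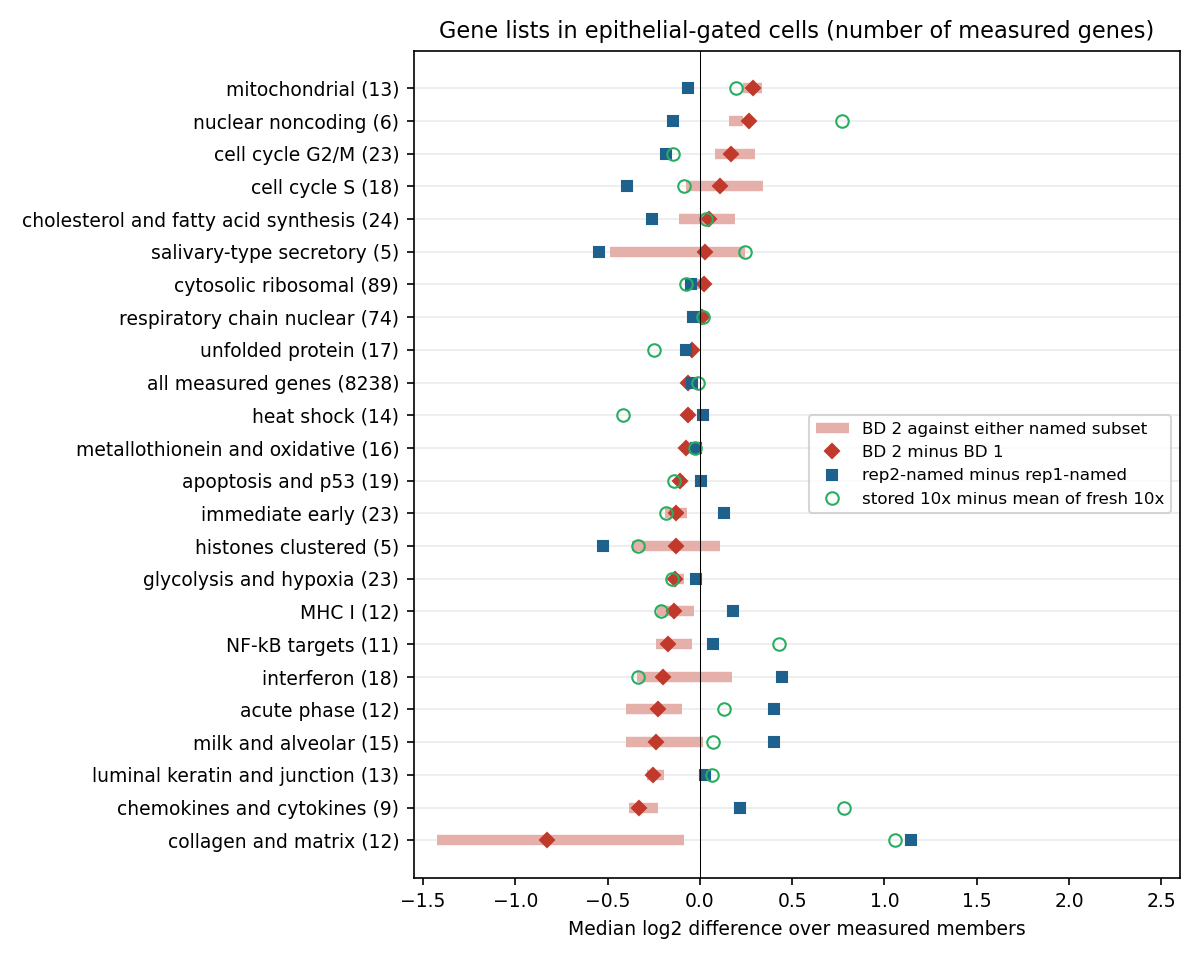
Median log2 difference over the measured members of each gene list in epithelial-gated cells, for BD 2 minus BD 1 (diamonds), BD 2 against each named subset (ends of the bars), the subsets against each other (squares) and stored minus fresh 10x (open circles). Mitochondrial and nuclear noncoding lists lie at 0.29 and 0.27, and collagen and matrix at -0.83 with its bar from -1.43 to -0.09.

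Outside the epithelial gate 128 genes were called higher (1.42% of 9045) and 637 lower (7.04%), together 8.46%. The share past 1.5-fold was 4.57% between the named subsets, 6.81% between the fresh 10x samples and 18.2% between stored and fresh 10x. As single comparisons like these, BD 2 was past 1.5-fold for 13.3% against the rep1-named subset and 17.1% against the rep2-named one. Cells outside the gate mix types, so all these counts move with the gate shares above. Collagen and matrix had 17 of 22 genes called lower at a median of -0.76, and complement 7 of 13 at -0.67, among them C3 at 565 CPM in BD 1 and 327 in BD 2. The remaining cells of BD 1 lay near BD 2 for collagen and matrix, with 291 UMIs per 10000 against 282 and 464 in all of BD 1. For complement they lay between, at 46 per 10000 against 37.7 and 59.4. Malat1 was called higher here, at 1442 against 2428 CPM (log2 difference 0.75), with Kcnq1ot1 (0.98), mt-Atp8 (1.42) and mt-Nd4l (0.87). Some epithelial transcripts were called higher as well. With 1 of 16 milk genes called, Csn3 was at 3631 CPM against 6076. The luminal keratin and junction list had 3 of 12 genes called higher. Of these Spint2, an epithelial protease inhibitor, was at 146 CPM against 229, while Epcam and Krt18 had placed the cells under the gate. Epcam and Krt18 were also the 2 of 8 epithelial markers called higher. The epithelial markers summed to 6.16 UMIs per 10000 in BD 1, 8.81 in its remaining cells and 8.99 in BD 2.

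Epithelial RNA in cells of other types differed in both directions. Its level was taken in each cell as the summed share of Krt8, Krt18, Epcam, Csn3 and Wfdc18, and the median cell was used. Krt8, Krt18 and Epcam also set the epithelial gate, which holds them low in every cell outside it. The gate therefore partly fixes these percentages. The median level in macrophage-gated cells was 1.91% of that in epithelial-gated cells in BD 1 and 1.77% in BD 2. It was 2.11% and 2.43% in T and NK cells, and 1.5% and 1.14% in fibroblast-gated cells. In cells over no gate it was 9.44% (8.62% to 11.9% in the parts) and 14.1%. The stored 10x sample, by contrast, had 5.78% in macrophage-gated cells against 2.19% and 3.15% in the fresh pair.

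The split between higher and lower genes outside the gate depended on scaling. With TMM factors it was 218 higher and 428 lower, with DESeq2 size factors 229 and 404, and without mitochondrial and ribosomal UMIs 358 and 348. In epithelial-gated cells the split of 6 and 13 became 9 and 7 with TMM factors or with DESeq2 size factors. It was 11 and 10 without mitochondrial and ribosomal UMIs. Over whole libraries the split of 10 and 126 became 15 and 80 with TMM factors and 15 and 77 with DESeq2 size factors. Without mitochondrial and ribosomal UMIs it was 19 and 102. Against the remaining cells of BD 1, 101 of the 637 lower and 16 of the 128 higher genes were past 1.5-fold. Over whole libraries 11 of the 126 lower and 4 of the 10 higher genes were, and 53 of the 126 had the other sign.

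Macrophage-gated cells, also examined after the other results were seen, had 5 of 2997 genes called higher (0.167%) and 28 lower (0.934%), together 1.1%. In single comparisons 12.2% were past 1.5-fold between the subsets. For BD 2 it was 7.51% against the rep1-named subset and 9.64% against the rep2-named one. The subsets held 56 and 92 such cells and BD 2 held 165, so counting error weighs more on the comparison between the subsets. mt-Atp8 (1.13) was higher, and so was Cd72, a lectin-like receptor, at 146 CPM (135, 123 and 290 in the parts) against 278, with the remaining cells of BD 1 above BD 2. Cell cycle genes were among the lower ones, Birc5 (-1.95), Ube2c (-1.68) and Top2a (-1.62), but few cells carried them. Top2a had a UMI in 25 of 172 macrophage-gated cells of BD 1 (14.5%, interval 9.63 to 20.7) and in 13 of 165 of BD 2 (7.88%, interval 4.26 to 13.1), and in 30 of 332 and 21 of 234 fibroblast-gated cells (9.04% and 8.97%). The intervals overlapped, the median depth of the macrophage-gated cells was 11934.5 against 8093 UMIs, and the shares were not thinned to equal depth.

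Over all measured genes the difference of BD 2 from BD 1 was little correlated with that of stored from fresh 10x. The genes called higher outside the gate were an exception, as most of them were higher in both. The 2 differences share no sample. Pearson's r was 0.01 over whole libraries (8755 genes), -0.16 in epithelial-gated cells (8238 genes) and 0.13 outside the gate (9045 genes), given as descriptions since genes are not replicates. Of the 128 genes called higher outside the gate, 90 were at least 1.5-fold higher in stored 10x and 0 were 1.5-fold lower, where 10.1% of all genes there were that much higher. Of the 637 called lower, 133 were 1.5-fold lower in stored 10x and 132 were 1.5-fold higher, against 8.11% and 10.1% of all genes. In both comparisons cells over no gate were more frequent in the second library, at 9.1% in stored 10x against 3.57% and 4.62% in the fresh pair, and their part in these counts was not tested.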

How the data were processed

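The authors deposited matrices of raw UMI counts per gene and cell. The submitters' processing notes name Cell Ranger 3.0.1 and the mm10 build without a role, and the program that counted the BD Rhapsody reads is not given in the sources used here. Cells had been selected before deposit, with smallest totals of 2577 UMIs in BD 1 and 1776 in BD 2. Spellings of the same symbol were merged, giving 41028 names, and doublets were not called. Counts were summed per library, part and gate and written as CPM. Log2 differences used a pseudocount of 1 CPM, a floor of 10 CPM (50 in fibroblast- and macrophage-gated cells) and a call at 1.5-fold. With 1 sample a side there was no test. Intervals are exact at 95%.

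Gates were, in UMIs per 10000, 15 for Krt8, Krt18 and Epcam; 10 for C1qa, C1qb and C1qc; 20 for Col1a1, Col1a2 and Col3a1; 4 for Pecam1, Cdh5, Kdr and Emcn; 4 for Rgs5, Pdgfrb and Notch3; 3 for Cd3d, Cd3e, Cd3g, Trac, Ncr1 and Gzma; and 20 for S100a8 and S100a9. Over whole libraries and epithelial-gated cells, genes named were the 10 called with the largest difference in each direction, leaving out those with over 50% of their UMIs in 10 or fewer cells and placeholder symbols, plus called members of the gene lists and the most abundant member of each list described. Other names, including those within fibroblast- and macrophage-gated cells and outside the gate, were chosen after their values were seen and are examples. The library comparison and the lists were chosen with earlier results of these data known. Alternatives were scaling (edgeR 4.0.16 TMM, DESeq2 1.42.0 size factors, or without mitochondrial and ribosomal UMIs), floors, pseudocounts, folds, references, cell filters and gates. Scripts ran in Python 3.11.15 and R 4.3.3, and the calling step was tested on simulated counts. The pooled fresh 10x matrix was not used. Of the genes called in epithelial-gated cells 1 is counted but not reported here.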

Additional observations from a re-analysis of the deposited data

Results flagged for a closer look

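Krt14, the basal keratin, was called in opposite directions in the 2 sets of cells. It was lower in BD 2 in epithelial-gated cells, with a log2 difference of -0.63 (34.6 against 21.9 CPM), and higher outside the gate, with 0.88 (21.4 against 40.3 CPM). This difference between the sets of cells was not tested, since there was 1 sample on each side. Outside the gate 10 cells held 61.5% of the Krt14 UMIs of BD 2.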

How the results depend on the processing

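Genes called over whole libraries (136) numbered 260 and 41 at floors of 1 and 50 CPM, 62 with a pseudocount of 10, 19 at 2-fold, 551 against the rep2-named subset alone and 69 among cells of at most 20% mitochondrial UMIs. In epithelial-gated cells (19) they numbered 58, 7, 6 and 5 at the same floors, pseudocount and fold, and 52, 153 and 82 against the rep1-named, rep2-named and remaining cells alone. Outside the gate (765) they numbered 1290, 325, 405 and 105, then 1205, 1543 and 487, and 402 among cells of at most 20% mitochondrial UMIs, 503 with the gate at 10 and 310 with it at 30.

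The epithelial share difference of -4.10 points was -0.138 with the gate at 10 and -7.67 at 30. That of mural cells (0.117 points) was 0.697 with the other gates at 0.5 times their threshold, and that of T and NK cells (0.669) was 2.25 among cells of at most 20% mitochondrial UMIs. The ratio of median UMIs (0.716) was 0.795 in epithelial-gated cells, and that of genes at equal depth (0.943) was 0.961 there and 0.949 above the common smallest total. Lists over 0.2 from the median gene rose from 6 to 13 over whole libraries and from 7 to 15 in epithelial-gated cells against the rep2-named subset alone.

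Against the remaining cells of BD 1 the sign reversed over whole libraries for Fbn1 (0.40), Fn1 (0.41), Hba-a1 (-0.80), Hbb-bt (-0.71), Scgb1b27 (2.70), Tnc (1.16) and Wif1 (-0.68), and in epithelial-gated cells for Col4a1 (0.27), Igfbp7 (0.024), Npy (0.51), Scgb1b27 (2.65), Sparc (0.46) and Wif1 (-0.62). Above the common smallest total it reversed for Hba-a1 (-1.03) and Hbb-bt (-0.81). The cause was not tested. The median of the nuclear noncoding list changed sign among cells of at most 20% mitochondrial UMIs, to -0.08 over whole libraries and -0.16 in epithelial-gated cells. With TMM factors the heat shock and unfolded protein medians over whole libraries were 0.01 and 0.02. Of the other alternatives over shares and counts, 65 stayed within the spread or 1.5 times. No paired analysis was possible because each side is 1 sample.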

Other observations

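B and plasma cell transcripts differed more inside BD 1 than between the libraries. Their summed level was 15.2 UMIs per 10000 in BD 1 and 6.47 in BD 2, but 3.33, 20.9 and 24.9 in the parts of BD 1. Of the 11691 Jchain UMIs of BD 1, 10 cells held 98.6%. Ighg1 had 4460 of its 4698 UMIs of BD 1 in 1 cell of the rep1-named subset, and BD 2 had 1 UMI of it.

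Haemoglobin transcripts stood at 1.12 per 10000 in BD 1 (0.06, 0.82 and 4.29 in its parts) and at 2.15 in BD 2. T cell markers stood at 0.71 (0.42, 0.94 and 0.70) and 0.97. Among T and NK cells the shares with a UMI were 25.3% and 28.7% for Trdc, 25.3% and 19.4% for Cd4, and 37.4% and 28.7% for Cd8a, with intervals that overlapped. Adipocyte markers stood at 0.29 per 10000 in BD 1 (0.20 to 0.41 in its parts) and 0.08 in BD 2.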
